A study of Homo sapiens with 10 samples.

Results

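The YAP and TEAD pathway genes described here are YAP1 and WWTR1, which encode the co-activators YAP and TAZ, the DNA-binding partners TEAD1, TEAD2, TEAD3 and TEAD4, the target genes CTGF and CYR61, and AMOTL2 and LATS2, which are targets as well as inhibitors. They were chosen by name, and all 10 were found among the 12125 genes of the deposited table. RNA of H1, an established human embryonic stem cell line, was sequenced (bulk RNA-seq) during hepatic differentiation, with 1 library for each of 10 days and no replicate. The day 0 library is from untreated hESCs grown on Matrigel in mTeSR1 medium, and days 1, 2 and 3 followed Activin A at 100 ng per ml in RPMI/B27 without insulin, with definitive endoderm (DE) as the presumed cell type. FGF4 (30 ng per ml) and BMP2 (20 ng per ml) came before days 5 and 7, and HGF with KGF, both at 20 ng per ml, before days 9 and 11. These steps were in RPMI/B27 with insulin, and hepatoblasts were the presumed cells. The libraries of days 13 and 21 are labelled OSM (Oncostatin M, 20 ng per ml in a hepatocyte medium) and hepatocyte-like, although the lengths of the steps in the protocol put the start of OSM after day 13. All libraries come from this single line, and no culture without the added factors is part of the course, so that each comparison is between days.

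The Hippo pathway is a kinase cascade in which MST kinases with SAV1 activate LATS1 and LATS2, and LATS kinases phosphorylate YAP and TAZ and hold them in the cytoplasm. Unphosphorylated YAP and TAZ enter the nucleus, bind TEAD proteins, and switch on genes such as CTGF and CYR61, which encode secreted matricellular proteins. The pathway reads cell shape, contractility and cell contacts, and in the liver it is known for the control of organ size and of biliary against hepatocyte fate. Much of this control acts on the protein, which RNA levels do not show.

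The TEAD proteins recognize the core motif CATTCC, or GGAATG on the other strand. This motif of 6 bases was looked for on both strands in the 250 bases before the gene start, in sequences from RefSeq (GRCh38.p14). The table of starts held 10 windows for 7 of the 10 genes (CTGF and CYR61 were looked up under their newer symbols CCN2 and CCN1), and CYR61, TEAD1 and TEAD4 were not among them. The windows of 3 genes are shown because they hold the motif, in capitals, 5′ to 3′ on the strand of the gene.
CTGF (chr6:131951373-131951622, minus strand): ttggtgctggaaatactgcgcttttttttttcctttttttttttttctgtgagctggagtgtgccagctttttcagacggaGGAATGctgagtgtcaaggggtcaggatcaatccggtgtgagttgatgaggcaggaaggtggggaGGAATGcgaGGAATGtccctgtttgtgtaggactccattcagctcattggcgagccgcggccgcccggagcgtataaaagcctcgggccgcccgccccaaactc
AMOTL2 (chr3:134374448-134374697, minus strand): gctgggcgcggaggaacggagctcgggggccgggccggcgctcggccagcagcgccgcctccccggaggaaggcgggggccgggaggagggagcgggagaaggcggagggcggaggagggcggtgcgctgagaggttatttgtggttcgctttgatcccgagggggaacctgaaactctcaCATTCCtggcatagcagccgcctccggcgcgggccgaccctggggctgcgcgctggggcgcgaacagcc
YAP1 (chr11:102110197-102110446, plus strand): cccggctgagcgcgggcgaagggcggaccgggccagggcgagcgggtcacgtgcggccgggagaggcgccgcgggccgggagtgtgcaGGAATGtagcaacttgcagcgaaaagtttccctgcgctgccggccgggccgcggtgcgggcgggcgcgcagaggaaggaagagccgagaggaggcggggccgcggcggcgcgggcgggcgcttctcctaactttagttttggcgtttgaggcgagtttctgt
The CTGF window held 3 copies, of which the most distant began 169 bases before the start and the others 104 and 95 bases before it. AMOTL2 held 1 copy at 69 bases in 1 of its 2 windows, and YAP1 held 1 copy at 162 bases. Of all 35116 windows in the table, 11.9% held at least 1 copy and 0.0826% held at least 3. A match of these letters is a description and does not show that a factor bound there.

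Values are the GC-normalized whole numbers of the deposited table, and each change is a later minus an earlier log2(value + 1), which makes changes of low genes look smaller. A gene is said to have risen or fallen where this difference was at least 1 (2-fold) and the larger value was at least 50. This is a limit of size and not a test, since 1 library per day allows none. Sums of values ran from 2330948 to 2362740 in the libraries and medians were 81 or 82, so that the depth of a library cannot be read from them. The average depth was low, and counting error of the low values could not be measured. Values of 1000 or more fall into 31 narrow levels shared by the libraries, with 9 or 10 genes in each. From day 9 to day 11, with HGF and KGF in both, the log2 differences of 8444 genes had a standard deviation of 0.36, and 1.61% of genes were past 2-fold. Over this step 0 of the 10 pathway genes were past 2-fold, and the largest difference was that of CYR61 (-0.78).

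Markers followed the labels between the ends of the stages, but not in every library. The summed value of 6 pluripotency genes was 12133 at day 0, 13864 at day 1 and 98 at day 21. For 7 DE genes it was 24 at day 0, 3031 at day 1 and 22518 at day 3. At day 1 SOX17 was at 2, while 4 of the 7 had risen. For 7 hepatoblast and hepatocyte genes the sum was 151 at day 3 and 68404 at day 21. ALB was at 168 at day 13 and 4866 at day 21. The highest of these sums rest mostly on genes at the highest shared level, 18734 (CER1 at day 3, AFP, TTR and SERPINA1 at day 21). Markers of other cell types were higher late in the course. The sum of 9 fibroblast and stromal genes was 846 at day 3 and 41795 at day 21, when COL1A2 held 18734. That of 6 red blood cell genes was 7 at day 3 and 4393 at day 13. Of 6 macrophage genes PTPRC and CD68 were found, and both were higher at day 21 (65 and 259) than at day 13 (0 and 50).

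**Figure D1:**
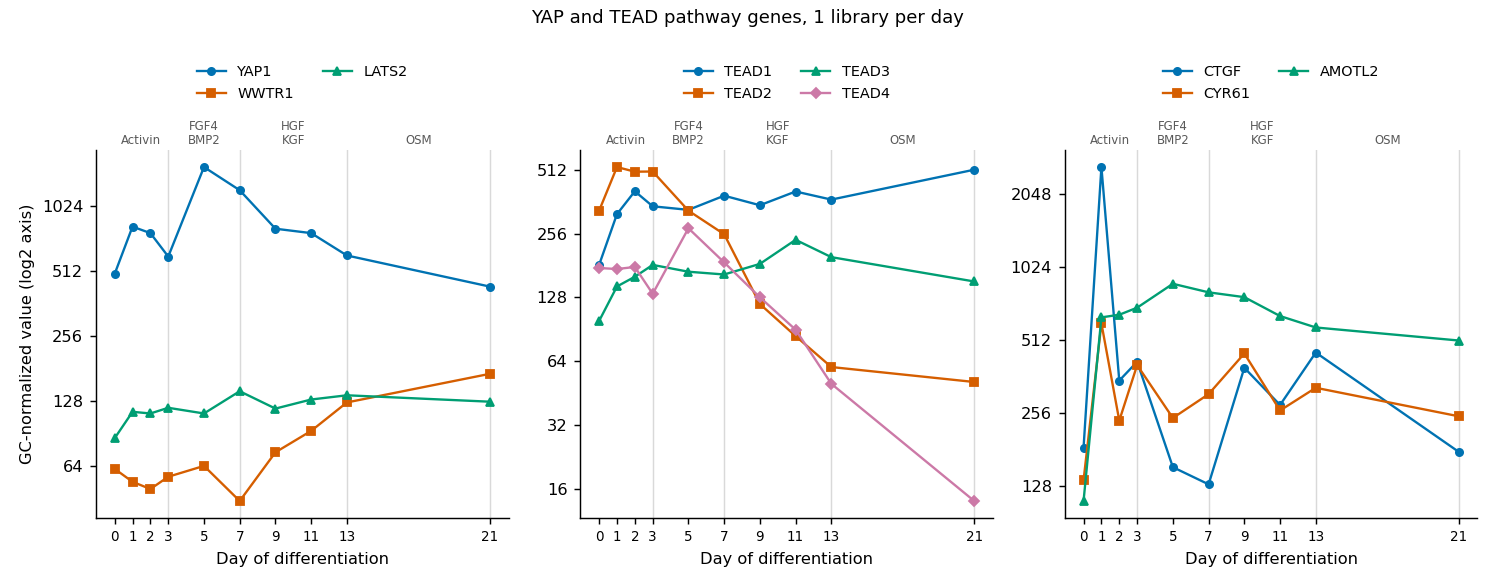
GC-normalized values (log2 axis) of the 10 pathway genes against the day of differentiation, with 1 point per library and grey lines at the ends of the culture steps. CTGF and CYR61 stood highest at day 1 (2640 and 599), YAP1 at day 5 (1555), and TEAD4 ended at 14.

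CTGF, CYR61 and AMOTL2 had their largest rises over the first day, with Activin A. Between day 0 and day 1 these 3 genes rose and the other 7 were not past 2-fold, where 4.01% of 8629 genes rose and 4.71% fell. CTGF, connective tissue growth factor (ENSG00000118523, chromosome 6), had values of 184, 2640, 348 and 416 at days 0, 1, 2 and 3. The rise to day 1 was 14.3-fold by the ratio of values and 3.84 on the log2(value + 1) scale, and it was followed by a change of -2.92 to day 2, a step at which 2.78% of genes fell. By size it was number 24 among the 8629 genes compared. The day 1 value lies on a shared level (2636 to 2643) that holds 10 genes, so its size is that of a rank and not of a free measurement. In bulk libraries a change in the number of cells of a type and a change in RNA per cell cannot be told apart.

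CYR61 (ENSG00000142871, chromosome 1), another secreted protein of the same family, showed the same early peak at a smaller size. Its values were 135, 599, 238 and 403 at days 0, 1, 2 and 3, with log2 changes of 2.14 to day 1 and -1.33 to day 2. AMOTL2 (ENSG00000114019, chromosome 3), a junctional angiomotin that binds and retains YAP, rose as early but stayed up. Its values were 111, 634, 650 and 695 at days 0, 1, 2 and 3, and its highest was 872 at day 5. No later library was below 509 (day 21). LATS2 (ENSG00000150457, chromosome 13), the kinase that phosphorylates YAP, had values of 86 at day 0 and 114 at day 1, and lay between 112 and 142 from then on. Its log2 range over the course, 0.72, was the smallest of the 10 genes.

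Contractile genes moved over the same day. The summed value of 5 smooth muscle and contractile genes was 598 at day 0 and 2416 at day 1, with 3 of the 5 higher by at least 2-fold and TAGLN going from 133 to 1434. At day 2 the sum was 2272, while CTGF had gone from 2640 to 348. ACTA2, a defining marker of smooth muscle, was at 6 and 3. The part of these cells or genes in the rise of CTGF was not tested. The sum of the 9 stromal genes was lower at day 1 (1309) than at day 0 (2954), most of it from THY1, which hESCs also express. LUM was listed at 0 in both libraries.

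After day 3 CTGF fell, rose and fell again over the 3 later stages, whereas CYR61 did not pass 2-fold again. CTGF was 153 and 130 at days 5 and 7 with FGF4 and BMP2, 393, 276 and 454 at days 9, 11 and 13, and 177 at day 21. Its log2 changes were -1.67 from day 3 to day 7, 1.80 from day 7 to day 13 and -1.35 from day 13 to day 21. The last is not counted when day 11 (276) takes the place of day 13 (454), an alternative chosen after seeing the data. At day 21 it was thus near the day 0 value, with a difference of -0.06 that changed sign to 0.13 when libraries were scaled by the median of ratios. CYR61 was 244 and 306 at days 5 and 7, 450, 262 and 325 at days 9, 11 and 13, and 248 at day 21. Its values at days 9 and 11 differed by -0.78 without a change of medium, which is more than its differences over the last 3 stages (-0.40, 0.09 and -0.39). The sum of the 5 contractile genes ran lower at day 7 (1073) than at day 3 (2572), higher at day 13 (1922) and lower at day 21 (918). Between these stage ends it went in the same direction as CTGF, but not between all successive libraries. From day 9 to day 11 the sum went from 1419 to 1659, while CTGF went from 393 to 276. TAGLN held most of the drop from day 3 to day 7 (1324 and 265), while ACTA2 was 2 and 62. The stromal sum was also higher at day 13 (38660) than at day 7 (5049), and what part these genes or cells had in CTGF was not tested.

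**Figure D2:**
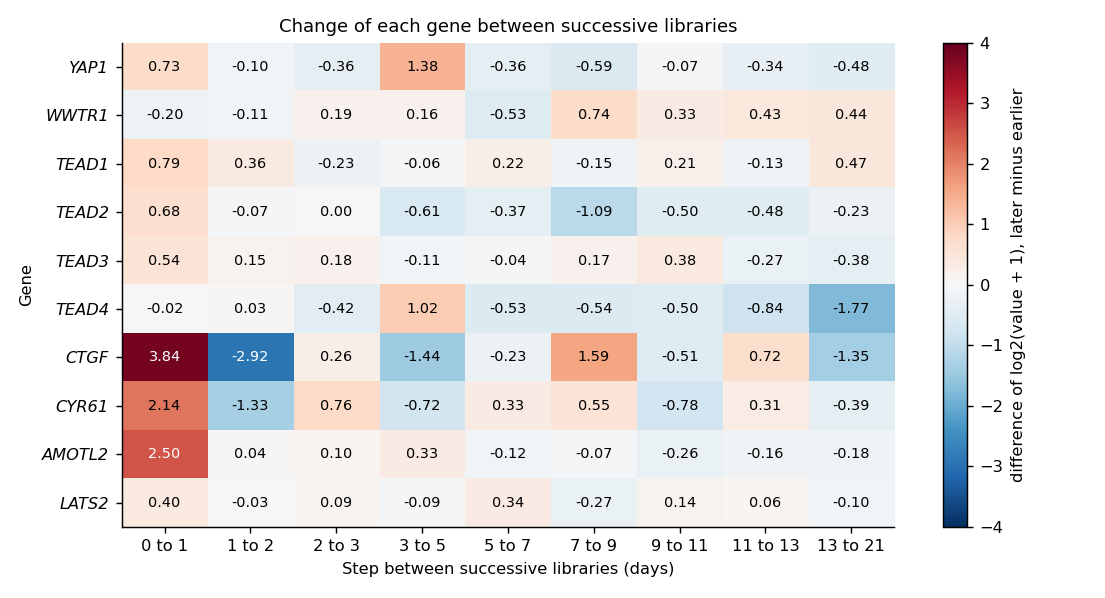
Differences of log2(value + 1), later minus earlier, for each gene (rows) and each step between successive libraries (columns), with red for higher and blue for lower. The step from day 0 to day 1 holds the 3 strongest rises (CTGF 3.84, AMOTL2 2.50, CYR61 2.14), and the columns of days 2 to 3, 5 to 7, 9 to 11 and 11 to 13 hold no difference of 1 or more, where 3.66%, 14%, 1.61% and 2.63% of all genes were past 2-fold.

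The co-activators went opposite ways in the later course. YAP1 (ENSG00000137693, chromosome 11) had values of 497, 823, 768 and 598 at days 0 to 3, rose to 1555 at day 5, and then had 1214, 805, 768, 605 and 434 on days 7, 9, 11, 13 and 21, each library lower than the one before. From day 3 to day 5 it rose by 1.38, a step at which 7.76% of 8767 genes rose. Both its values above 1000, at days 5 and 7, lie on shared levels of 10 genes. From day 5 to day 21 its log2 change was -1.84. WWTR1 (ENSG00000018408, chromosome 3), the gene of TAZ, had values between 44 and 64 in the first 6 libraries and of 74, 93, 126 and 171 at days 9, 11, 13 and 21. The 4 libraries from day 9 on were above all 6 earlier ones. It rose by 1.50 from day 7, its lowest library, to day 13.

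Because the genes differ in length, the co-activators were compared per kb of transcript in GENCODE 29. Per kb of the median transcript, YAP1 was 3.18 times WWTR1 at day 0, 4.17 times at day 3, 10.96 times at day 7, 1.91 times at day 13 and 1.01 times at day 21. The level of this ratio depends on the length used. With the longest transcripts it was 7.47, 25.7 and 2.36 at days 0, 7 and 21, and with the median coding transcript 0.876 at day 21, so that the order of the genes at day 21 was not settled. The fall of the ratio to day 21 was 10.9-fold from day 7, its highest, and 3.16-fold from day 0. These folds do not depend on the length chosen, because the same length was used on every day. Over the days when WWTR1 was rising, the summed stromal value was 5049, 18665, 20948, 38660 and 41795 (days 7, 9, 11, 13 and 21). The sum of the 5 endothelial genes found of 6 was 389 at day 7 and 1962 at day 13. At day 21 it was lower (1250), while WWTR1 was at its highest. Of the 9 stromal genes 7 rose from day 7 to day 13. Their part in the values of WWTR1 was not tested.

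**Figure D3:**
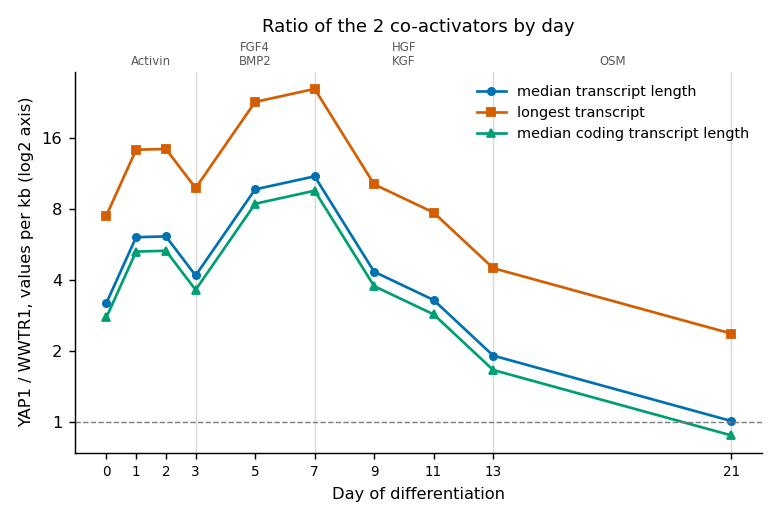
Ratio of the YAP1 to the WWTR1 value per kb (log2 axis) against the day of differentiation, for 3 choices of transcript length, with a dashed line at equal values. The curves are parallel by construction, with the highest ratio at day 7 (10.96, 25.7 and 9.52) and the lowest at day 21 (1.01, 2.36 and 0.876).

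Of the TEAD genes, TEAD2 and TEAD4 fell over the course, TEAD1 rose, and TEAD3 was not past 2-fold over any of the 5 stage comparisons. TEAD2 (ENSG00000074219, chromosome 19), a TEAD of the early embryo and of neural progenitors, had 328, 527, 501 and 502 at days 0 to 3, then 328, 254, 119, 84, 60 and 51 at days 5, 7, 9, 11, 13 and 21. From its peak at day 1 every later library was at or below the one before, with the exception of day 3, 1 unit above day 2. Its log2 change was -0.98 from day 3 to day 7, just short of 2-fold, and -2.06 from day 7 to day 13. TEAD2 shares exonic sequence with CD37 on the opposite strand, whose values lay between 6 and 31 in the 10 libraries. CTGF, WWTR1 and YAP1 also share exonic sequence with antisense genes in GENCODE 29, which were not analysed here, and AMOTL2 with a ribosomal protein pseudogene on its own strand. Since it is not known whether the counting used strand, reads of such partners cannot be told apart.

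TEAD4 (ENSG00000197905, chromosome 12), known for its role in the trophectoderm, was lowest at the end. Its values were 176, 174, 178 and 133 at days 0 to 3, 271 at day 5, and 187, 128, 90, 50 and 14 at days 7, 9, 11, 13 and 21. It rose with YAP1 from day 3 to day 5, by 1.02. It then fell over both later stages, with log2 changes of -1.88 from day 7 to 13 and -1.77 from day 13 to 21. The value of day 5 was 19.4 times that of day 21.

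TEAD1 (ENSG00000187079, chromosome 11), broadly expressed in differentiated tissues, had 182 at day 0, 316, 405 and 344 at days 1 to 3, between 331 and 404 from day 5 to day 13, and 512 at day 21. Day 0 was its lowest library and day 21 its highest, and the change between them was 1.49. TEAD3 (ENSG00000007866, chromosome 6) had its lowest value, 99, at day 0 and its highest, 239, at day 11, and ended at 152.

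The makeup of the TEAD genes was compared per kb. At days 1, 2 and 3 TEAD2 had the highest value, at days 5, 7 and 9 TEAD4, and at day 21 TEAD1, with each of the 3 lengths tried. Of these days, the lead over the next TEAD gene was above 1.28-fold (the standard deviation between days 9 and 11) with all 3 lengths only at day 3. That limit comes from changes of the same gene between libraries. It does not measure the error between different genes within 1 library, so the order at day 3 is a description too. With 1 of the lengths the lead was as small as 1.04-fold at day 2, 1.06-fold at day 7 and 1.19-fold at days 5 and 21, so that neighbours are not ordered there. At days 0, 11 and 13 the leading gene depended on the length. Per kb of the median transcript, TEAD2 made 42.0% of the summed TEAD value at day 3 and 9.33% at day 21, TEAD4 50.1% at day 5 and 6.37% at day 21, and TEAD1 20.3% at day 3 and 66.0% at day 21. With the longest transcripts TEAD1 made 43.0% and TEAD3 36.3% at day 21. These lengths are of annotated transcripts, and the isoforms present in the cells are not known.

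**Figure D4:**
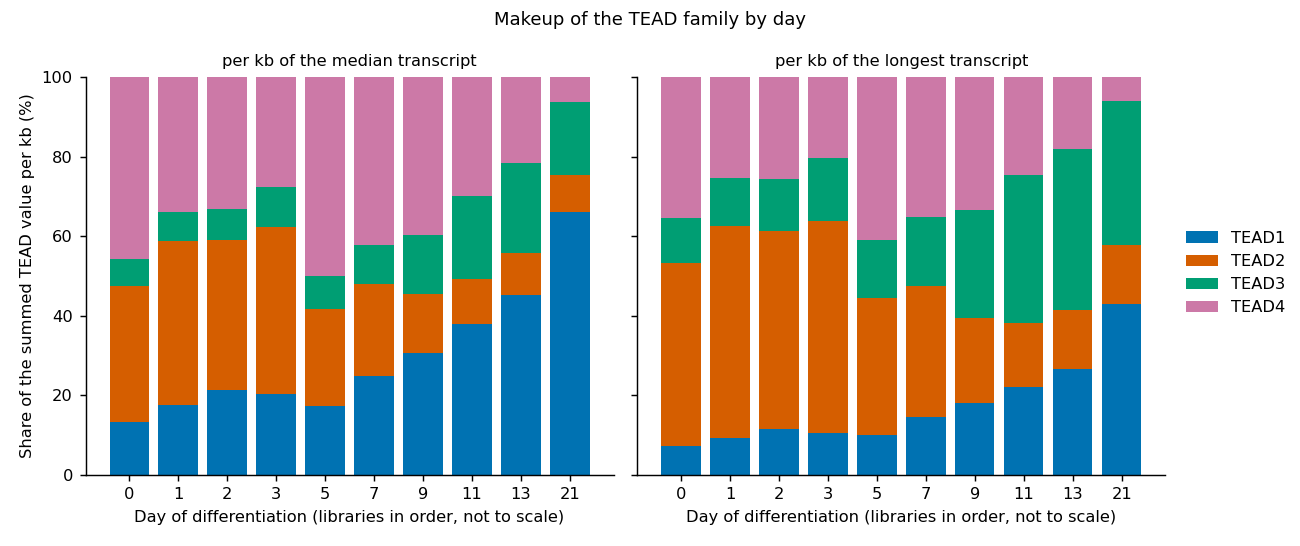
Share (%) of each TEAD gene in the summed TEAD value per kb for each library, with the median transcript length (left) and the longest transcript (right). TEAD1 grew from 13.4% at day 0 to 66.0% at day 21 on the left and from 7.32% to 43.0% on the right, while TEAD4 ended at 6.37% and 5.89%.

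Set by stage, from day 0 to day 3, 3 of the 10 genes rose (CTGF, CYR61 and AMOTL2) and 0 fell, where 11.1% of 8934 genes rose and 9.07% fell. The changes were 1.17, 1.57 and 2.64, and TEAD1 (0.91) and TEAD3 (0.87) were just short of 2-fold. From day 3 to day 7, YAP1 rose (1.02) and CTGF fell, where 13.2% rose and 12.8% fell. From day 7 to day 13, WWTR1 and CTGF rose and YAP1, TEAD2 and TEAD4 fell, where 9.65% of genes rose and 8.21% fell. The fall of YAP1, from 1214 to 605, lay at the limit. Its log2 change was -0.95 after scaling by the median of ratios and was then no longer counted. From day 13 to day 21, TEAD4 and CTGF fell and 0 of the 10 rose, where 8.57% of all genes rose and 9.08% fell, and TEAD4 alone fell from day 11. Between day 0 and day 21, WWTR1 (1.45), TEAD1 (1.49) and AMOTL2 (2.19) were higher and TEAD2 (-2.66) and TEAD4 (-3.56) lower, 5 of the 10 genes, where 23.9% of all genes rose and 26.4% fell. This share is near that of all genes. Past 4-fold were 1, 0, 1, 0 and 3 of the 10 genes over these 5 comparisons, where the shares of all genes were 6.1%, 10%, 5.54%, 3.89% and 23.5%. From day 0 to day 21 the median log2 difference of all genes compared was -0.11, and 0.08 after scaling.

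The upstream part of the pathway was read from a list of 32 other Hippo genes, of which 30 were found. From day 0 to day 3, 5 of the 26 that could be counted rose and 0 fell, where 11.1% of all genes rose, and 3 of the 5 had at least 50 at day 0. The median change of the 27 with a mean of at least 50 was 0.31, against -0.03 for all genes with such a mean. A mean over the 10 libraries also lets in genes that are high only in later ones. The largest rises were those of WTIP (2.14), an AJUBA-family protein that binds LATS, AMOT (1.26), an angiomotin, and DCHS1 (1.24), a cadherin upstream of the cascade. From day 3 to day 7, 6 of 28 rose and 0 fell, where 13.2% and 12.8% of all genes did. Of the 26 with at least 50 at day 3, 4 rose, while TAOK3 (18) and CRB3 (40) started below it. AMOT, on the X chromosome and related to AMOTL2, had 59, 242 and 1890 at days 3, 5 and 7, a change of 4.98, followed by TAOK3 (2.02), an MST-activating kinase, and CRB3 (1.82), an apical polarity protein. AMOT then had 1022, 506, 407 and 166 at days 9, 11, 13 and 21. From day 7 to day 13, 1 of 29 rose (DCHS1, 1.03) and 4 fell, where 9.65% of all genes rose and 8.21% fell. The falls were led by AMOT (-2.21), PTPN14 (-1.62), a phosphatase that binds YAP, and FRMD6 (-1.37). From day 13 to day 21, VGLL3 (1.49), a TEAD cofactor, and FAT4 (1.43), the partner of DCHS1, rose and AMOT fell (-1.29), 3 of 29 genes, where 8.57% of all genes rose and 9.08% fell. Between day 0 and day 21, 9 of 27 rose and 2 fell, SAV1 (-1.83) and SCRIB (-1.07), where 23.9% of all genes rose and 26.4% fell. Of the 23 that had at least 50 at day 0, 5 rose, so that the count of 9 depends on genes that were low at the start. The median of the 27 with a mean of at least 50 was 0.40, against -0.11. From day 3 to 7, 7 to 13 and 13 to 21 this median was 0.13, -0.32 and 0.06, against -0.02, -0.06 and -0.11. The core kinases were not among those past 2-fold over any of these comparisons. STK4 had 154 at day 0 and 88 at day 21, LATS1 60 and 102, and STK3 28 and 36, the last below the minimum of 50 in each library.

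A list of 18 other published YAP and TAZ targets was found complete, with PTPN14 in both lists. Many of its genes were low in the early libraries and reached the minimum of 50 only through the later library, so that they had to differ, and their counts are given as descriptions. From day 0 to day 3, 6 of 10 rose and 0 fell, where 11.1% and 9.07% of all genes did. All 6 rose from values below 50, and of the 4 genes that had at least 50 at day 0, 0 rose. From day 3 to day 7, 6 of 16 rose and 0 fell, where 13.2% and 12.8% of all genes did. Of these 6, 2 were among the 9 with at least 50 at day 3. For the 15 genes with a mean of at least 50 over the 10 libraries, the median changes were 0.66 and 0.85, against -0.03 and -0.02 for the 8518 genes of the table with such a mean. Such a mean also lets in genes that are high only in later libraries, so the medians do not remove this limit and are descriptions as well. Over the first day alone only F3 and NUAK2 rose, of 8 that could be counted, where 4.01% of all genes did. Both started below 50 (22 and 34), and of the 4 with at least 50 at day 0, 0 rose. The median of the 15 was 0.49, against 0.02. ANKRD1, a nuclear ankyrin-repeat protein and a common YAP reporter, had 1, 3, 30, 282 and 1638 at days 0, 1, 2, 3 and 5, and then 508, 334, 218, 173 and 284 at days 7, 9, 11, 13 and 21. Its highest library was day 5, as for YAP1. MYOF (14 and 76 at days 0 and 3, and 1385 at day 7) and F3 (22 and 96), which encodes tissue factor, also rose from day 0 to day 3. The largest rises from day 3 to day 7 were CCDC80 (5.91), TGFB2 (4.83) and IGFBP3 (4.40), and IGFBP3 had 6495 at days 11 and 13, on one of the highest shared levels. From day 7 to day 13 the list was mixed, with 4 higher, IGFBP3 (3.35), AXL (1.74) and RBMS3 (1.49) foremost, and 5 lower of 16, where 9.65% and 8.21% of all genes were, among them TGFB2 (-1.83), FJX1 (-1.68) and PTPN14 (-1.62). From day 13 to day 21, F3 (3.87) and DOCK5 (1.28) rose, 2 of 14, where 8.57% of all genes rose. Between day 0 and day 21, 11 of 12 rose and 0 fell, where 23.9% of all genes rose and 26.4% fell, but 8 of the 11 started below 50. Of the 4 with at least 50 at day 0, 3 rose. The median of the 15 with a mean of at least 50 was 2.42, against -0.11, with the same limit, since the mean includes the late libraries. This median was -0.23 from day 7 to 13 and 0.35 from day 13 to 21, against -0.06 and -0.11. Several genes of this list, such as IGFBP3, CCDC80 and AXL, are also expressed by stromal cells, whose summed markers went from 5049 at day 7 to 38660 at day 13, and the part of these cells in the counts was not tested.

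**Figure D5:**
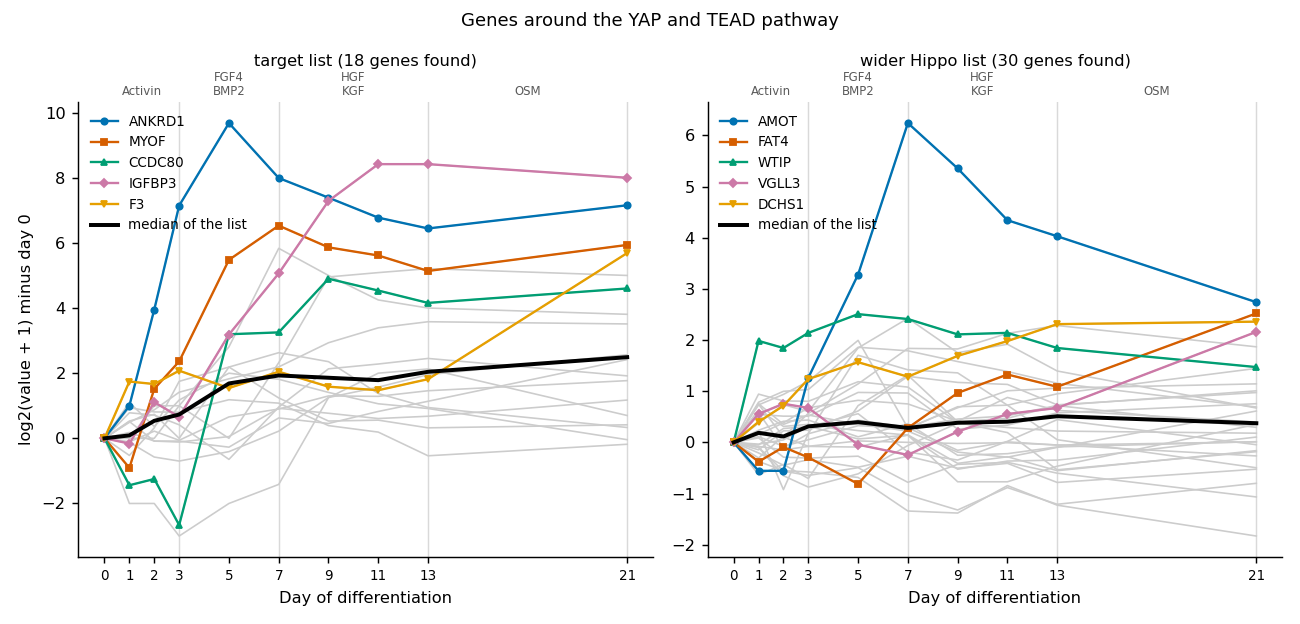
Difference of log2(value + 1) from day 0 for each gene (grey lines) of the target list and of the wider Hippo list, with the 5 genes that strayed most from their own mean in colour and the median of the list in black. The target median over all 18 genes, many of them low at day 0, ended at 2.49 and the Hippo median over all 30 at 0.37, and AMOT peaked at day 7 and ANKRD1 at day 5.

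The genes whose course was most like that of each gene with a log2 range of at least 2 were found by the root mean square difference of log2(value + 1), centred on the mean over the 10 libraries. A range of at least 2 was met by 5 of the 10 genes (TEAD2, TEAD4, CTGF, CYR61 and AMOTL2), and by 40.2% of the 10746 genes with a value of at least 50. For AMOTL2 the nearest of all genes was WTIP, itself in the wider Hippo list, with a difference of 0.20, followed by CDC42EP1 (0.25) and HEG1 (0.28). For TEAD2 they were LARP7 (0.26), EMB (0.26) and FABP5 (0.29), for TEAD4 a gene with only a clone name (0.37), HACL1 (0.37) and ZNF778 (0.38), and for CYR61 TMEM222, MAML3 (0.33 each) and USP53 (0.34). CTGF had no close match. Its nearest gene, GADD45B (15, 308 and 100 at days 0, 1 and 2), differed by 0.65.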

How the data were processed

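The RNA-seq libraries of 10 days were used, 1 per day, matched to their day by column name and sample title. According to the methods, the authors aligned reads to an Ensembl transcriptome, which they name as mouse although the identifiers are human, with Bowtie2 2.2.0 and RSEM 1.2.17, and GC-normalized them with EDASeq. The values the authors deposited are whole-number scores, not read counts, with nearly the same sorted values in all libraries, and no count test was run. The methods give a low average depth, on a MiSeq, and the depth of each library is unknown. The table's intervals name no build (the processing notes list hg19 and mm10 without a role) and are not printed. All values are from single libraries.

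Differences of log2(value + 1) were taken for 5 stage comparisons and for successive libraries. Genes were counted past 2-fold where the larger value was at least 50, over all 12125 genes, and all 10 pathway genes met this minimum in every comparison. Alternatives were other pseudocounts, median-of-ratios scaling, other minimum values, a 4-fold limit, day 11 in place of day 13, and other transcript lengths, the median coding length and the day 11 alternative having been chosen after seeing the data. All members of the pathway, every gene list and the marker lists were chosen with earlier results of these data known. Named from each list were the 3 largest rises and falls per stage past 2-fold, and the 3 nearest profiles for genes with a log2 range of at least 2. Other genes named (the core kinases, TAGLN, ACTA2, THY1, PTPRC, CD68, NUAK2, CD37) were chosen after their values were seen. Transcript lengths came from GENCODE 29, matched by gene identifier, and promoters from RefSeq (GRCh38.p14), matched by symbol. The code was tested on simulated data. Python 3.11.15, numpy 2.4.6, pandas 2.3.3 and matplotlib 3.10.9 were used.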

Additional observations from a re-analysis of the deposited data

How the results depend on the processing

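Over 150 recomputed log2 changes of the pathway genes, called or not, under other pseudocounts and scaling, the largest move was 0.31. That 0 of the called ones reversed was fixed in advance. A pseudocount cannot change the sign of a difference, and scaling shifted the median difference of all genes by at most 0.19. A 4-fold limit left 1 of the 10 genes from day 0 to 3, 0 from day 3 to 7, 1 from day 7 to 13, 0 from day 13 to 21 and 3 from day 0 to 21. With a larger value of at least 200, 3 genes were counted from day 7 to 13, 1 from day 13 to 21 and 3 from day 0 to 21, since WWTR1 and TEAD4 lie below it. The same minimum left, in the wider Hippo list, 2, 3 and 3 genes over the first 3 stages and 5 from day 0 to 21, and in the target list 1 from day 0 to 3, 2 from day 3 to 7 and 1 from day 13 to 21. The fall of YAP1 from day 7 to 13 was not counted with a pseudocount of 5, after scaling, or with day 11 in place of day 13. With day 11, an alternative chosen after seeing the data, 1 gene, TEAD4, fell to day 21 and CTGF was no longer counted. Scaling also brought CYR61 past 2-fold from day 0 to 21. The ratio of YAP1 to WWTR1 ran from 2.36 to 25.7 with the longest transcripts, against 1.01 to 10.96. The leading TEAD gene was the same on 7 of 10 days with those lengths, and on 10 with coding transcripts. Leaving out a replicate and a paired analysis were not possible, because each day has 1 library. No spread between cultures was measured. Values above 1000 are ranks, and lower ones are not free measurements either, since the sorted values are nearly the same in all libraries.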
